A study of Mus musculus with 4 samples.

Results

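Matrix metalloproteases (MMPs), ADAM and ADAMTS proteases, the ADAMTS-like proteins and their inhibitors were followed through the growth of the mouse mandible and tongue. The genes were taken by name from the array's annotation: every Mmp, Adam, Adamts and Adamtsl gene with a number, Timp1 to Timp4 and Reck. The rule found 85 genes of the 26695 genes named on the array, measured by 166 probes, and each gene was read from its brightest probe. Of these genes, 39 had 1 probe and 46 had several, at most 5.

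The series compared 4 pools of embryonic tissue from mice of ICR, an outbred stock, and the labels name no altered gene and no treatment. MMA was the medial part of the mandibular arch at embryonic day 9.5 (E9.5), pooled from 12 embryos. LLS was the lateral lingual swellings at E11.5, the paired bulges on the inner side of the arch from which the front of the tongue forms, pooled from 4 embryos. LMA was the lateral part of the mandibular arch at E11.5, and T was the median tongue at E14.5, each pooled from 4 embryos. Each pool was hybridised to 1 single-colour array, so the differences below have no replicate check and no p-value. The medial label of the LLS sample's region field goes beside a title and source that name the lateral lingual swellings, and the extraction text of all samples speaks of cerebellum. Of 7 cerebellum markers, 4 were well above background in every tissue, and Calb1, Gabra6 and Zic2 were not in any.

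These proteins remodel the space around cells. MMPs are secreted or membrane-bound zinc proteases that cut collagens, gelatin and other matrix proteins. ADAMs are membrane-anchored and release the outer part of growth factors, Notch receptors and adhesion molecules, although several have lost their protease site. ADAMTS proteases are secreted, and their members trim procollagens or cut proteoglycans such as versican, while ADAMTS-like proteins share the ancillary domains without a protease and bind microfibrils. The tissue inhibitors of metalloproteases (TIMPs) and the membrane-anchored protein Reck hold these enzymes in check.

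Levels are the scanner software's processed signal, a background-subtracted and spatially detrended brightness in arbitrary units. For comparisons the log2 signal was set against the 75th percentile of its array, and a difference of at least 2-fold was counted. A value that the scanner software flagged as not well above background is called dim here. A dim value below the lowest signal well above background on its array was raised to that signal, and a dim value above it was kept. A fold against a dim value is written as at least that size. Folds therefore differ a little from the ratio of the printed signals. Signals of different probes cannot be set against each other, and levels are compared only between tissues. The 75th percentile signal lay between 421.8 and 506.7 in the 4 arrays, 57% to 62.9% of spots were well above background, no spot was saturated, and all arrays lay on the same slide. Probes printed 10 times on each array gave differences with a median SD of 0.036 to 0.048 on the log2 scale between spots. The software's own error of a member's difference between tissues was 0.20 to 0.43. Both errors cover the measurement of 1 pool only.

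In MMA, 39 of the 85 genes were well above background, against 50 in LLS, 50 in LMA and 51 in T. As shares these are 45.9%, 58.8%, 58.8% and 60%, where all genes gave 58.7%, 61.2%, 64% and 62.2%. Across the tissues 57 genes were detected somewhere, 39 in all tissues and 28 in none. The dim genes belonged mostly to a pair of families. Of the 21 ADAMs known from testis and epididymis, 15 were dim in every tissue, as were 8 of the 10 MMPs that lie side by side on chromosome 9. All 9 sheddase ADAMs, all 7 ADAMTS proteoglycanases, all 5 ADAMTS-like genes and all 5 inhibitors were detected in at least 1 tissue.

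The MMP cluster was the longest run of neighbouring members. Its probes spanned positions 7282762 to 7699535 of chromosome 9 (mm9, the build in the file headers) in the order Mmp13, Mmp12, Mmp1b, Mmp3, Mmp1a, Mmp10, Mmp8, Mmp27, Mmp20 and Mmp7. It holds the interstitial collagenases, the stromelysins, matrilysin, macrophage elastase (Mmp12) and enamelysin (Mmp20), the protease of tooth enamel. Mmp1b gave 23.0 units in LMA and between 4.46 and 9.22 units in the other tissues, where it was dim. Mmp8, neutrophil collagenase, gave 25.6 units in LMA and 14.2 to 17.6 units elsewhere, again dim. Both LMA signals lay just above the lowest well-above-background signal of that array, 20.1 units. Mmp13, a collagenase of cartilage and bone, reached 15.8 units in T and stayed dim in all tissues.

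Most of these genes have, in the bases just before a start site, letters that most genes lack, so those bases are shown here. They come from RefSeq promoters (GRCm38.p6), which were given for 54 of the 85 genes. The motif of the AP-1 factors, TGAGTCA, and the TATA box TATAAA, both searched on either strand, are in capitals. Only windows of the cluster that hold an AP-1 motif are printed. Each line holds the 100 bases before a start site, 5′ to 3′ on the gene's strand.
Mmp13: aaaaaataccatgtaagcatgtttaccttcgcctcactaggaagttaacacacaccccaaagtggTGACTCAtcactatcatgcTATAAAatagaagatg
Mmp12: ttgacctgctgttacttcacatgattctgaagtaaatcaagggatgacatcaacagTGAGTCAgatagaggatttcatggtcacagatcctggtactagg
Mmp1b: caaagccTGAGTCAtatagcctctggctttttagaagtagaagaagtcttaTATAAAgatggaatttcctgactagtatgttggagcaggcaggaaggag
Mmp3: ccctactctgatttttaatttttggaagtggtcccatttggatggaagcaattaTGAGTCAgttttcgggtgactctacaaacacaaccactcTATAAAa
Mmp1a: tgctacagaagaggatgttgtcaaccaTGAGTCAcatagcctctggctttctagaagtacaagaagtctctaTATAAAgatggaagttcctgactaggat
Mmp10: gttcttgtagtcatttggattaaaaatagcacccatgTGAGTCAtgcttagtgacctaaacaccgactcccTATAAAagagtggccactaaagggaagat
Mmp7: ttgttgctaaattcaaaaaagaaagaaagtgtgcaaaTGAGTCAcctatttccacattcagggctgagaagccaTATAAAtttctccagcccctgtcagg

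These windows lie at chr9:7272414-7272513 (Mmp13), chr9:7347274-7347373 (the second promoter given for Mmp12), chr9:7388027-7388126 (Mmp1b, minus strand), chr9:7445722-7445821 (Mmp3), chr9:7464041-7464140 (Mmp1a), chr9:7502242-7502341 (Mmp10) and chr9:7691990-7692089 (the first of the promoters given for Mmp7). Mmp1a and Mmp1b are close copies, and their windows share long stretches. Over the 250 bases before the start, the AP-1 motif stood in 7 of the cluster's 12 promoters (58.3%), in 2 of the 47 promoters of the other members (4.26%) and in 4.46% of all 32851 promoters. The TATA box stood in 58.3% of the cluster's promoters and in 12.4% of all promoters. The promoters of Mmp8 and Mmp27, and those not shown for Mmp12 and Mmp7, held neither motif. That of Mmp20 held a TATA box alone.

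Most promoters of members detected in every tissue, given for 25 of 39 such members, were of another kind. The GC box CCGCCC, searched on either strand, stood in none of the cluster's 12 promoters, in 19 of the 28 promoters (67.9%) of members detected in all 4 tissues and in 32.7% of all promoters. The median GC content was 63.4% in those 28 promoters, 40.4% in the 23 promoters of members detected in no tissue and 52.4% in all. Neither figure was taken over all genes of the array detected in 4 tissues, so the members were not compared with those. The inhibitors Reck and Timp2 and the procollagen protease Adamts14, all detected in every tissue, are shown as examples that hold the GC box, in capitals.
Reck: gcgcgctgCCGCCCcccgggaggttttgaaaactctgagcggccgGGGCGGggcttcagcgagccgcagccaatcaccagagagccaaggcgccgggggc
Timp2: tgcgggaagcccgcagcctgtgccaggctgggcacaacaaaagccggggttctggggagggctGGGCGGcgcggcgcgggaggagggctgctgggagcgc
Adamts14: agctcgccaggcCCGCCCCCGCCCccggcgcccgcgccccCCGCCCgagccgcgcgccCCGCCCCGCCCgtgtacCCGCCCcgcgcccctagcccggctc

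They lie at chr4:43875430-43875529 (Reck), chr11:118355412-118355511 (Timp2, minus strand) and chr10:61273420-61273519 (Adamts14, minus strand). A match of letters is a description of the window and no binding was measured. Neighbouring members often share a promoter type and a family, so the counts are not independent of each other.

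**Figure D1:**
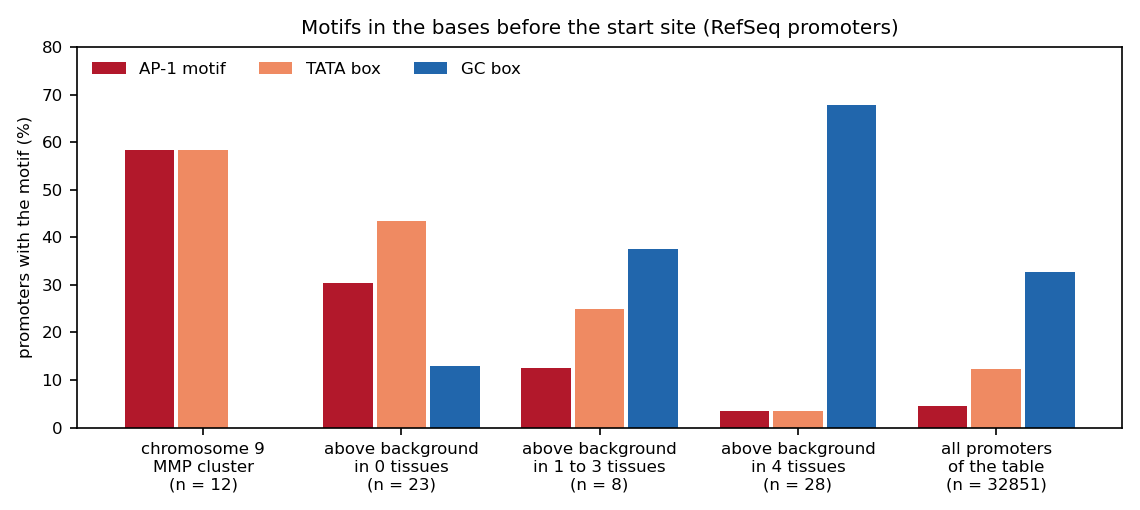
Share of RefSeq promoters (%, y axis, bars from 0) with an AP-1 motif, a TATA box or a GC box in the bases before the start site, for the MMP cluster, for members detected in 0, 1 to 3 or 4 tissues, and for all promoters. The AP-1 and TATA bars are tallest for the cluster at 58.3% and the GC box bar for members detected in 4 tissues at 67.9%; the 12 cluster promoters are also counted in the detection groups.

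Members whose levels varied were most often lowest in the youngest tissue. Of 39 members whose levels spanned at least 2-fold, 22 (56.4%) were lowest in MMA, against 32.9% of the 7629 genes of the array with such a span. Adamtsl3 alone (2.56%) was highest in MMA, against 33.1% of all genes. Its lead over the E11.5 tissues was small, with log2 differences of -0.12 for LLS and -0.09 for LMA minus MMA. Both lay within the software's error of 0.22. T held the highest level for 17 members, LMA for 14 and LLS for 7. Among genes detected in all 4 tissues, the median span between the highest and the lowest tissue was 2.92-fold over 39 members and 1.75-fold over 14629 genes.

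In the comparisons with MMA, LLS had 19 members at least 2-fold higher and 0 lower of 50 compared, where 9.74% of all genes were higher and 5.63% lower. LMA had 23 higher and 1 lower of 50, where all genes gave 10.6% and 7.22%. T had 24 higher and 4 lower of 51, where all genes gave 18.3% and 13.8%. In each later tissue the share of higher members lay above that of all genes, and the share of lower members below it. A gene dim in MMA was compared only where the later tissue was above background, so it could be called higher but never lower. Bounds against a dim value made up 5 of the called members in LLS, 6 in LMA and 9 in T. Among all called genes 536, 654 and 1379 were such bounds. The median difference of the members was 0.74 in LLS, 0.93 in LMA and 0.73 in T on the log2 scale, and that of all genes lay between -0.10 and -0.06. Over all 85 members, dim ones included without a floor, the median was 0.20 in LLS, 0.18 in LMA and 0.38 in T. The 3 comparisons share the MMA array, so their counts are not independent. Between the E11.5 tissues, LLS had 3 members higher and 5 lower than LMA of 56, where all genes gave 3.66% and 2.86%. In T minus LLS the members went both ways, with 12 higher in T and 9 lower of 55, where all genes gave 12.9% and 6.02%.

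**Figure D2:**
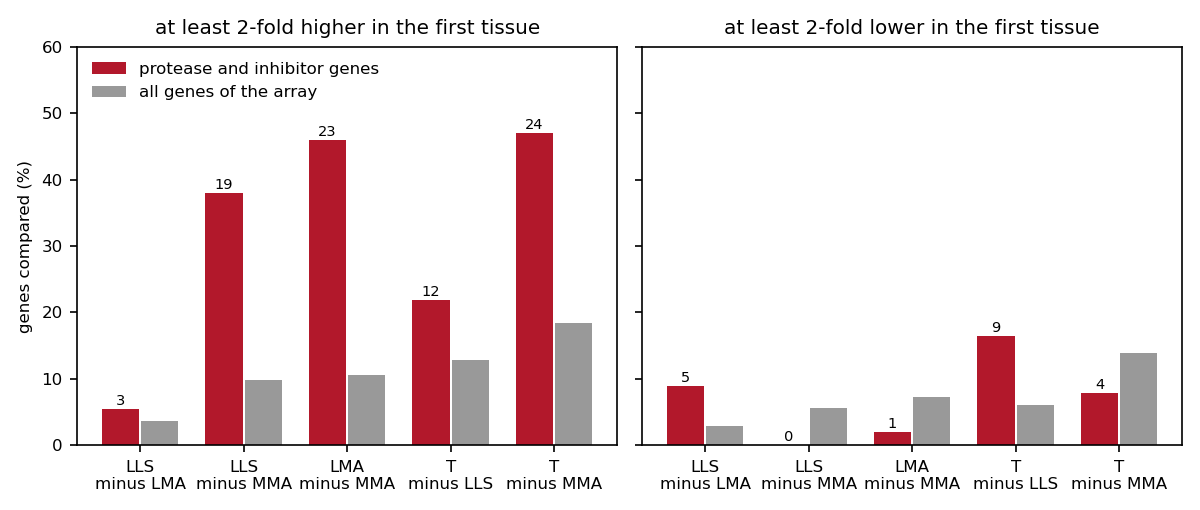
Share of compared genes (%, y axis, bars from 0) at least 2-fold higher (left) or lower (right) in the first tissue of each comparison, for the protease and inhibitor genes and for all genes of the array; numbers over bars count members. Higher members stand at 38% in LLS, 46% in LMA and 47.1% in T against MMA, above the all-gene bars of 9.74%, 10.6% and 18.3%.

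Markers of macrophages, which also make several MMPs, moved with stage in the same pools. Of 8 macrophage markers, 4 were well above background in MMA and 8 in each later tissue. Their summed signal was 725 units in MMA, 1947 in LLS and 2925 in LMA, and 4207 in T. The summed signal of 12 skeletal muscle markers was 603 units in MMA, 5243 in LLS, 19737 in LMA, with 404535 in T. In T minus MMA all 6 erythroid markers were at least 2-fold lower (median log2 difference -3.45), as were 7 of 9 arch mesenchyme markers (-2.55). In LMA minus MMA 8 of 12 epithelium markers were lower (-2.19) and 2 higher. The part of these lists in the differences of the members was not tested. In a pooled tissue, more cells of a type and more RNA per cell cannot be told apart.

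**Figure D3:**
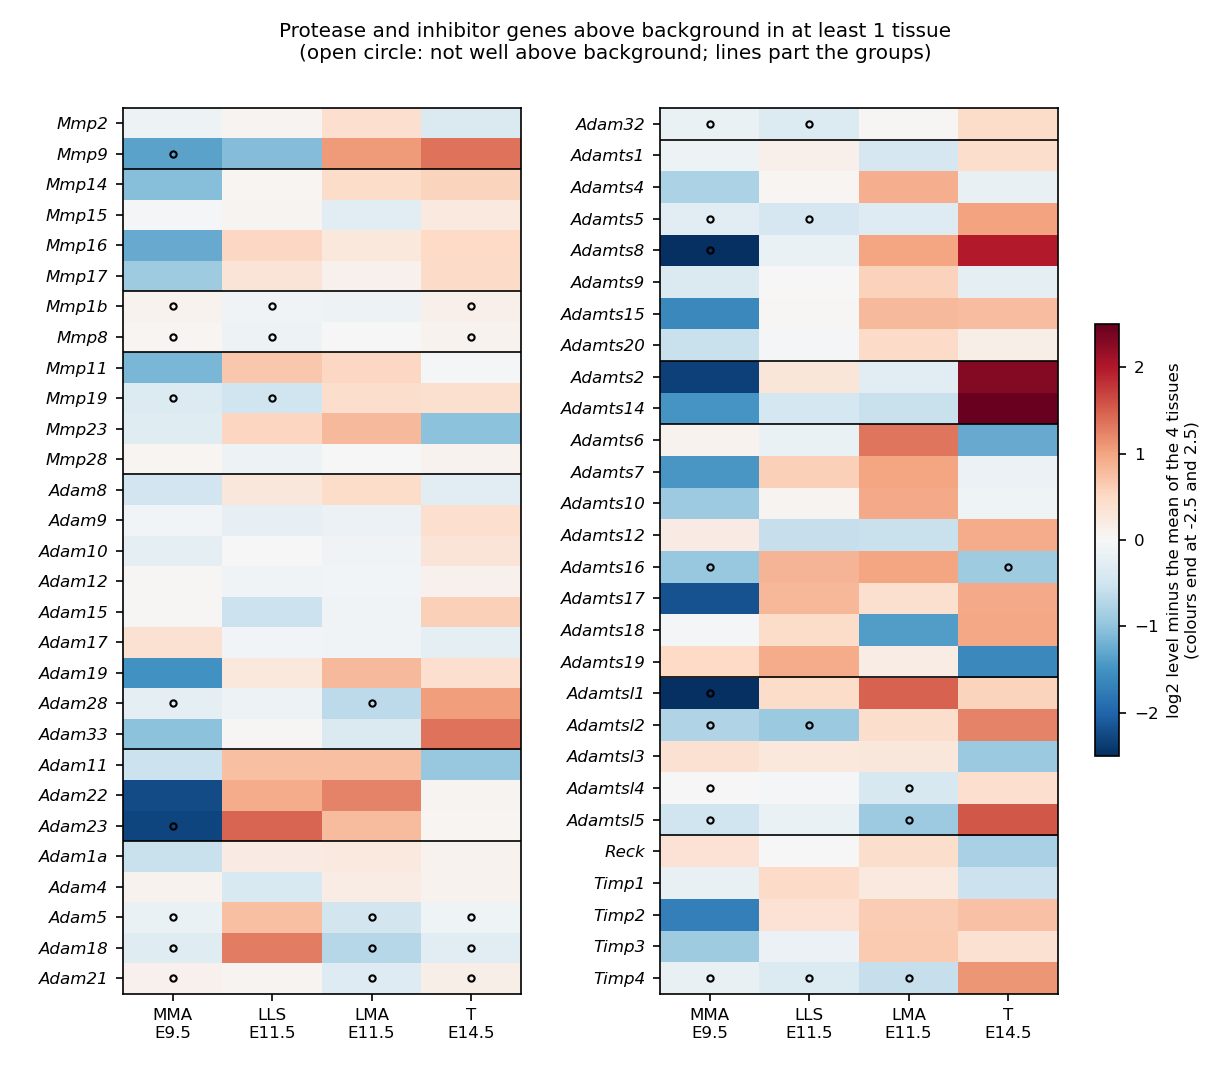
Log2 level of the 57 detected members in each tissue (columns, in order of stage) minus the mean of the 4 tissues, red for higher and blue for lower; open circles mark values not well above background. Lines part the groups, from gelatinases, membrane-type, cluster and other MMPs through the ADAM groups (left) to ADAMTS groups, ADAMTS-like genes and inhibitors (right). The MMA column is the darkest blue for Adamts2, Adamts8, Adamts17, Adamtsl1, Adam22 and Adam23, and the T column the darkest red for Adamts14 and Adamts2.

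The gelatinases, which cut denatured collagen and basement membrane collagen, differed from each other. Mmp2 gave 1853 units in MMA, 2293 in LLS and 3292 in LMA, and 1856 in T, a span of 1.72-fold. Mmp9, made by macrophages and osteoclasts among others, was dim in MMA at 4.95 units and gave 28.8 in LLS, 142 in LMA and 168 in T. It was thus low in LLS beside LMA at the same stage, by 4.42-fold (log2 difference -2.14), and its other probe gave -1.88. T exceeded LLS by 5.44-fold at this probe, whose position is chr2:164780620-164780679 (mm9). The other Mmp9 probe was dim in T at 20.2 units and did not share that difference (log2 difference -0.38, a bound).

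Of 6 membrane-type MMPs 4 were detected, in every tissue, and Mmp14, Mmp16 and Mmp17 passed 2-fold in LLS and in T, above MMA. Mmp14, which activates Mmp2 at the cell surface, gave 120 units in MMA, 280.4 in LLS, 413 in LMA, with 433 in T. Its log2 difference was 1.12 for LLS, 1.52 for LMA and 1.63 for T, each minus MMA. Mmp16 gave 196 to 224 units in the later tissues, against 56.9 in MMA. For LLS minus MMA its other probes gave 0.93 and, as a bound against a dim value, 0.89, beside 1.78. For LMA minus MMA they gave 1.22 and, as a bound, 1.42. In T minus MMA neither passed 2-fold, with 39.1 units against 28.3, and 47.1 against a dim 17.0 that was raised as above. Mmp17, held to the membrane by a lipid anchor, gave 132 to 165 units later, against 55.3 in MMA. Its other probe was dim in every tissue. Mmp15 did not pass 2-fold in any comparison, with 114 to 164 units. Mmp24 and Mmp25 were dim in every tissue.

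Among the remaining MMPs, Mmp11 (stromelysin-3, an enzyme of embryonic and tumour stroma) gave 705 units in MMA, 2676 in LLS and 2687 in LMA, and 1771 in T. It was low in MMA only, with 2.16-fold to the nearest tissue. Mmp23, a membrane-tethered MMP, gave 100.2 units in MMA, 195 in LLS, 263 in LMA, with 70.7 in T. Mmp23 was the only MMP at least 2-fold lower in T than in LLS, at 2.97-fold. Mmp28 stayed between 157 and 197 units, Mmp19 was detected in LMA and T alone at 45.9 and 42.7 units, and Mmp21 was dim throughout.

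Of the 9 sheddase ADAMs, 5 stayed within 2-fold in every comparison. Of the 18440 genes of the array detected somewhere, 7629 spanned at least 2-fold, so most genes did not. Adam10, the main sheddase of Notch receptors, gave 1984 units in MMA, 2485 in LLS and 2608 in LMA, and 3350.1 in T. Adam17, which releases TNF and EGF receptor ligands, gave 1224, 972, 1063 and 931 units in the same order of tissues. Adam9 gave 1152 units in MMA, 1124 in LLS, 1310 in LMA, with 1870.3 in T. Adam8 and Adam12 completed these 5. Adam12 (meltrin alpha, known from fusing muscle cells) stayed between 42.0 and 52.0 units.

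Its relative Adam19 (meltrin beta, known from heart and nerve development) did differ. Adam19 gave 443 units in MMA, 1644 in LLS and 2676 in LMA, and 1977 in T, and LLS exceeded MMA by 3.44-fold. Its probe lay at chr11:45960740-45960799 (mm9), and it was the single probe of the gene. In the tongue, 3 of the 9 sheddase ADAMs were at least 2-fold higher than in LLS, where 12.9% of all genes were. Adam15 gave 3695 units in MMA, 2687 in LLS, 4115 in LMA, with 6362 in T, and the other probes were higher in T than in LLS as well, 1 past 2-fold (log2 difference 1.21) and 1 just short of it, beside 1.14 for the brightest. Adam33 gave 197 units in T and 73.2 in LLS, and Adam28 gave 63.1 units in T and 26.1 in LLS. The other compared probes of Adam33 gave that difference as up to 2.05, with a bound of 0.38 at a probe dim in LLS. Both other Adam28 probes were dim in every tissue.

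Adam11, Adam22 and Adam23, related ADAMs with no protease activity, were all higher at E11.5 than in MMA at their brightest probes. Adam22 and Adam23 are receptors for secreted LGI proteins at synapses. Adam22 gave 32.3 units in MMA, 311 in LLS and 430.2 in LMA, and 184 in T. Adam23 was dim in MMA at 15.7 units and gave 322 in LLS, 225 in LMA and 130.3 in T. LLS exceeded MMA by 8.91-fold for Adam22 and by at least 13.4-fold for Adam23. Of the other Adam22 probes, 1 was dim in every tissue and 1 was above background in LMA alone at 22.2 units. Both genes were lower in T than in LLS, Adam23 by 2.66-fold and Adam22 by 1.82-fold. A second Adam23 probe gave log2 differences of 2.33 for LLS minus MMA and -1.08 for T minus LLS.

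Adam11 rests on 1 of its probes. The brightest probe gave 115 units in MMA, 301 in LLS, 336 in LMA, with 100.2 in T, whereas the other stayed between 134 and 155 units. Of 8 Schwann cell and neuron markers, 7 were detected in MMA, LLS and LMA and 8 in T, with a summed signal of 4609, 5889, 7390 and 12097 units in that order. Snap25 alone gave 3210, 4139, 5410 and 4690 of these units. The part of these markers in the levels of these ADAMs was not tested.

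Of the ADAMs known from sperm and epididymis, 6 of 21 were detected. Adam1a (fertilin alpha) gave 377 units in MMA, 692 in LLS and 792 in LMA, and 685 in T. Adam18 was seen in LLS alone at 72.1 units, against 5.20 in MMA, 18.5 in LMA and 8.70 in T, all dim. The second probe for the same Adam18 transcript was dim in every tissue, with 4.76 units in LLS, so this detection rests on 1 of 2 probes. Adam5, its neighbour in a run of 5 ADAMs on chromosome 8, was above background in LLS alone with both of its probes, at 44.9 units with the brighter one. LLS exceeded LMA by at least 3.99-fold for Adam18 and at least 2.31-fold for Adam5. Adam3, which lies between them, was dim in all tissues. A further pair of ADAM runs on that chromosome, with 4 and 3 genes, had no detected member.

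Some of the widest differences among the members belonged to the ADAMTS procollagen N-proteinases, which cut the end piece from fibrillar procollagens so that fibres can form. Adamts14 gave 167 units in MMA, 369 in LLS, 380 in LMA, with 3006 in T. The tongue thus stood apart from the 3 earlier tissues, at 7.56-fold above LLS (log2 difference 2.92) and 15.5-fold above MMA (3.95). A second Adamts14 probe gave 44.0, 99.1, 80.1 and 781 units and log2 differences of 2.87 and 3.93. The probes lay at chr10:60659860-60659919 and chr10:60660020-60660079 (mm9), and exon or UTR was not assigned because no annotation of that build was used.

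Adamts2, the enzyme lost in a skin fragility disorder, gave 42.4 units in MMA, 284 in LLS and 214 in LMA, and 1212 in T. T exceeded MMA by 24.6-fold and LLS by 3.96-fold at this probe. A second probe, assigned by the array to another transcript of the gene, was dim in MMA and gave 136 units in LLS, 142 in LMA and 105 in T. At that probe the difference of T minus LLS was -0.48, so the step at E14.5 was seen with 1 probe alone, while the low value in MMA was seen with both. The third probe was dim everywhere. Adamts3, the remaining N-proteinase, was dim in all tissues. In the same comparison of T minus LLS, all 12 muscle markers and 5 of 8 macrophage markers were at least 2-fold higher and all 9 arch mesenchyme markers lower, and their part in these differences was not tested.

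The ADAMTS proteoglycanases cut versican and aggrecan. At their brightest probes, 2 of 6 compared were past 2-fold above MMA in LLS, 4 of 7 in LMA and 3 of 7 in T. All genes gave 9.74%, 10.6% and 18.3%. None was past 2-fold below MMA at these probes, where all genes gave 5.63%, 7.22% and 13.8%. Other probes of Adamts9 were past 2-fold below MMA in T, as given below. Adamts8 was dim in MMA at 22.6 units and gave 152 in LLS, 377 in LMA and 723 in T. The tongue exceeded MMA by at least 27.5-fold, the widest difference of any member, and LLS by 4.41-fold. Its neighbour Adamts15, at chr9:30707033-30707092 (mm9) beside Adamts8 at chr9:30770384-30770443, gave 240.0 units in MMA, 804 in LLS, 1543 in LMA, with 1461 in T. Both genes of the pair were thus lowest in MMA and lower in LLS than in LMA, by 2.23-fold for Adamts8 and 1.73-fold for Adamts15. Each was read from its only probe.

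Adamts1 and Adamts5, a pair of neighbours on chromosome 16, changed less. Adamts1 gave 1178 units in MMA, 1513 in LLS and 1158 in LMA, and 2028 in T. Adamts5 was dim in MMA and LLS and gave 25.7 units in LMA and 62.0 in T. The tongue was thus the only tissue with Adamts5 at least 2-fold above the detection limit of its array. Adamts9, known with Adamts20 from closure of the palate, gave 648 units in MMA, 893 in LLS, 1486 in LMA, with 825 in T. Its probes disagreed on the tongue: the brightest gave -0.22 for T minus LLS, and the 3 others gave -1.25 to -1.04, past 2-fold. Those 3 were also past 2-fold lower in T than in MMA. Their log2 levels were -3.86, -2.51 and -1.85 in T, against -2.76, -1.20 and -0.57 in MMA. At its brightest probe Adamts4 gave 446 units in LMA, against 114 in MMA, 220 in LLS and 202 in T. Another Adamts4 probe was highest in LLS, with 131 units there and 54.8 in LMA, and the remaining one in T, with 63.0 units there and 46.2 in LMA. Adamts4 thus had no order of tissues that its probes shared. Adamts20 was highest in LMA, at 94.0 units. In LLS minus LMA the median over the 7 proteoglycanases was -0.58, and over all genes it was 0.00.

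**Figure D4:**
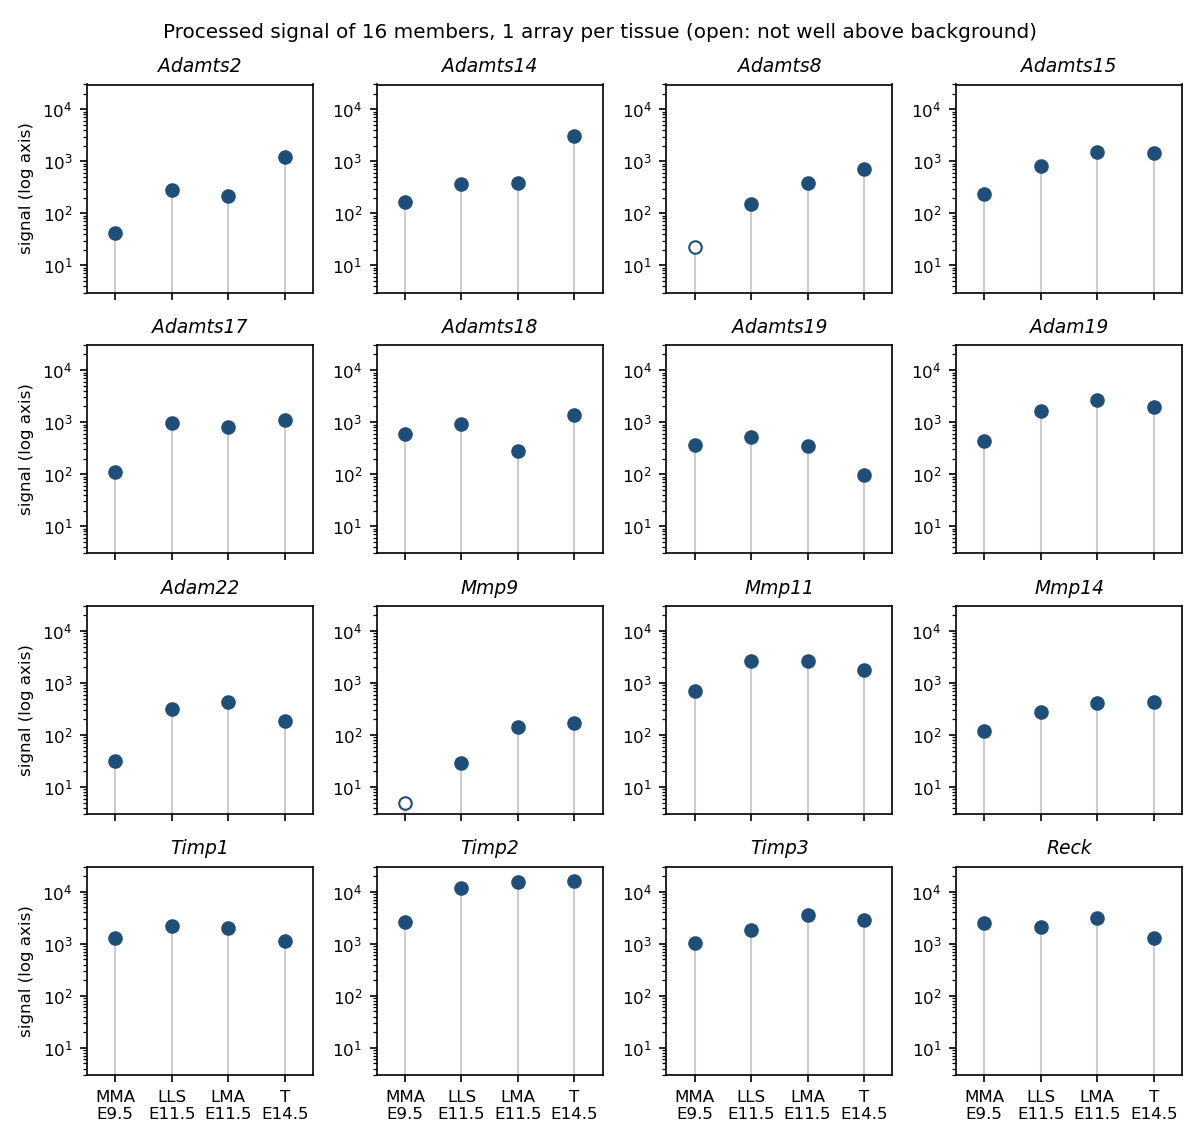
Processed signal (log axis, arbitrary units) of 16 members in MMA, LLS, LMA and T, 1 array per tissue, with open symbols where the signal was not well above background; levels are comparable within a panel. Adamts14 lies at or below 380 units until T reaches 3006, Adamts18 dips in LMA to 281 and Adamts19 falls to 96.7 in T.

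Among the other ADAMTS proteases were clear contrasts between regions of the same age. Adamts18, known from eye, lung and submandibular gland development, gave 598 units in MMA, 910.4 in LLS and 281 in LMA, and 1395 in T. LLS exceeded LMA by 3.60-fold (log2 difference 1.85), and LMA lay 2.56-fold below MMA, where LLS lay 1.41-fold above it. The other Adamts18 probes, between 1.04 and 1.94 for LLS minus LMA, kept the direction. Adamts18 was the only member called low in LMA alone, where 0.857% of all genes were.

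Adamts6, which acts on fibrillin microfibrils and on heart development, ran the opposite way. It gave 63.9 units in MMA, 57.9 in LLS, 182 in LMA, with 29.1 in T. LLS lay 2.82-fold below LMA, and both other probes gave -1.39 beside -1.50, 1 of them as a bound. Adamts10, its close relative, was also highest in LMA at 457 units, against 222 in LLS, but its other compared probes ranged from -0.76 to -0.14. So 1 pair of ADAMTS genes marked the E11.5 regions past 2-fold in opposite directions with all their compared probes, and Adamts10 passed 2-fold with none.

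Markers of tissue layers moved between these E11.5 pools. Of 12 epithelium markers, 9 were at least 2-fold higher in LLS than in LMA (median log2 difference 2.55), and of 8 endothelium markers 5 were lower (-1.22). Of 9 arch mesenchyme markers 6 were lower (-1.42), and of 11 compared muscle markers 9 were lower (-1.80). Their part in the values of Adamts18, Adamts6 and Mmp9 was not tested. Macrophage markers differed less, with 0 of 8 past 2-fold (-0.38).

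**Figure D5:**
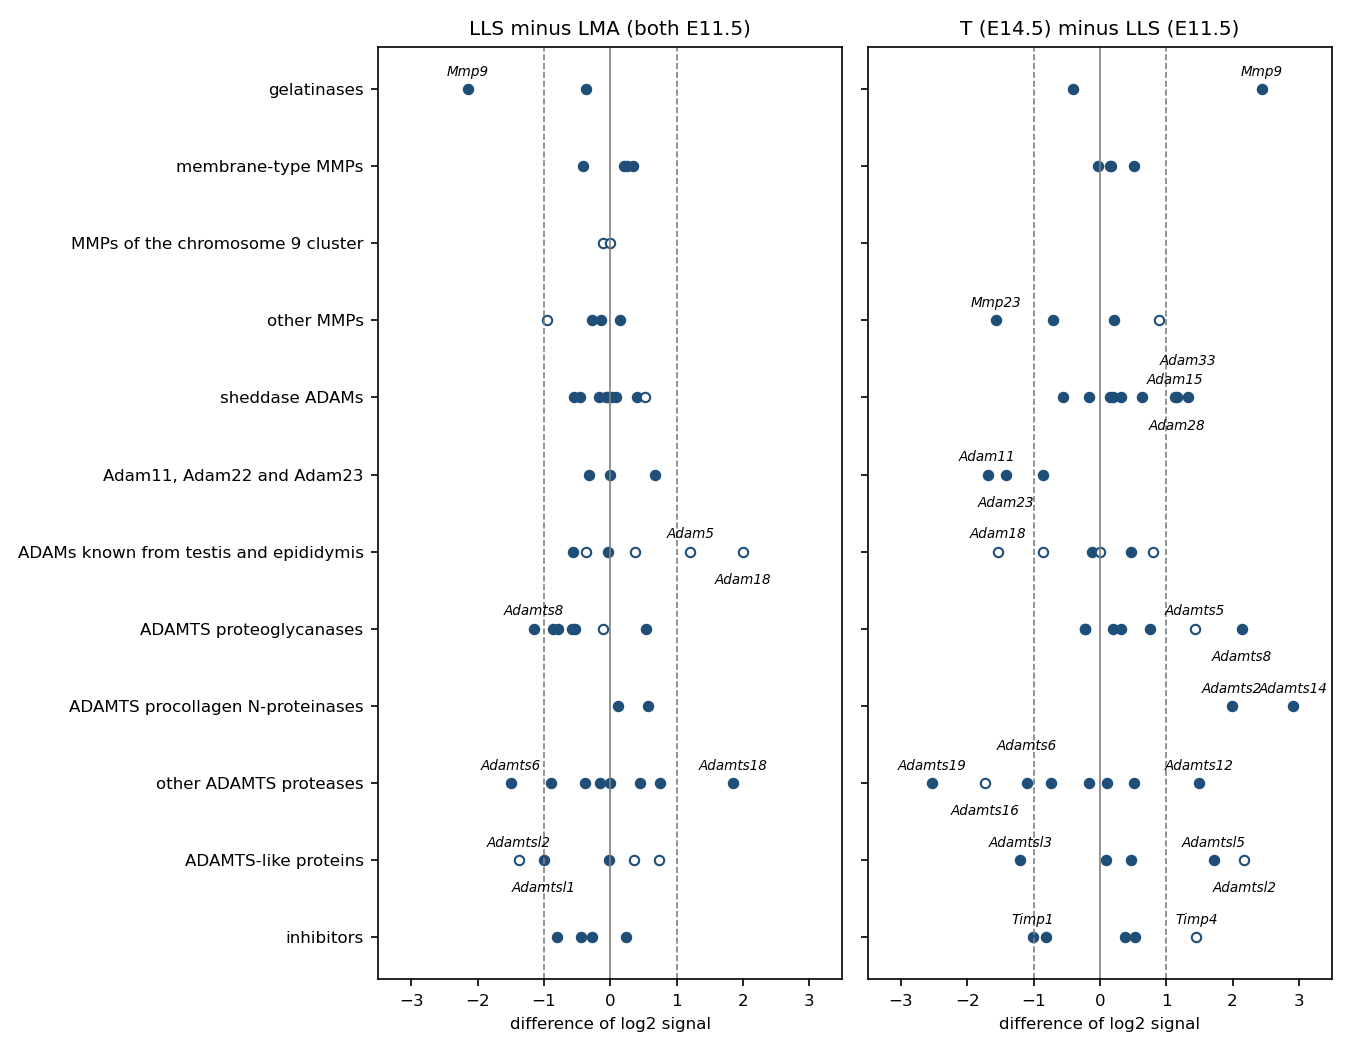
Log2 differences of members in LLS minus LMA (left) and T minus LLS (right), by group down the page, with open circles for bounds against a dim value and dashed lines at 2-fold; members past the lines are named. Adamts18 and Adam18 lie at the right edge and Mmp9 and Adamts6 at the left edge of the first panel, and Adamts14 and Adamts19 at the opposite edges of the second.

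Adamts19 had the most negative difference of T minus LLS. It gave 356 units in MMA, 517 in LLS and 344 in LMA, and 96.7 in T. T lay 5.76-fold below LLS and 4.28-fold below MMA, and a second probe, dim in T, gave log2 differences of at least 1.11 and 1.15 in the same direction. Adamts16 was detected at E11.5 alone, with 82.4 units in LLS and 102 in LMA, and was dim in MMA and T. Its 2 other probes were dim in every tissue. It was thus at least 3.33-fold lower in T than in LLS.

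Adamts17 and Adamts7 were low in MMA. Adamts17, known from a short-stature syndrome of connective tissue, gave 111 units in MMA, 967 in LLS, 790.1 in LMA, with 1116 in T, and LLS exceeded MMA by 8.05-fold. Its other compared probes gave log2 differences up to 3.34 and, for a probe that was dim in MMA, a bound of 0.32. Adamts7, which cuts cartilage oligomeric matrix protein, gave 218 units in MMA, 976 in LLS and 1411 in LMA, and 629 in T. Its relative Adamts12 took another course, with 192 units in MMA, 122 in LLS, 136 in LMA, with 368 in T. Both other Adamts12 probes were dim in every tissue. Adamts13, the liver enzyme that cuts von Willebrand factor, was dim in every tissue.

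All ADAMTS-like genes were detected in T, against 1 of 5 in MMA, where 62.2% and 58.7% of all genes were. Adamtsl4 gave 34.3 units in T, where the lowest signal well above background was 26.7, and its other probe was dim in every tissue. Adamtsl1 was dim in MMA at 8.50 units and gave 185 in LLS, 412 in LMA and 212 in T. Its other compared probes were also dim in MMA, and their bounds on LLS minus MMA ranged from 0.46 to 2.40 beside 2.95 for the brightest. Adamtsl2, whose protein binds fibrillin and a latent TGF-beta binding protein, was dim in MMA and LLS and gave 61.5 units in LMA and 104 in T. Adamtsl5 gave 107.3 units in T and 30.2 in LLS, and was dim in MMA and LMA. Adamtsl3 was the exception, at 121 units in MMA, 121 in LLS and 136 in LMA, and 56.5 in T. T thus exceeded LLS by at least 4.52-fold for Adamtsl2 and by 3.30-fold for Adamtsl5, and lay 2.30-fold below it for Adamtsl3. The other Adamtsl3 probe was dim in every tissue.

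The inhibitors did not move together. Timp2, which blocks MMPs and also helps Mmp14 to activate Mmp2, gave 2605 units in MMA, 11754 in LLS, 15767 in LMA, with 16369 in T. It was low in MMA, with LLS 4.18-fold above it, and the other Timp2 probe gave a smaller log2 difference of 0.90 beside 2.06. Timp3, the matrix-bound inhibitor that also blocks ADAM and ADAMTS proteases, gave 1042 units in MMA, 1880 in LLS and 3651 in LMA, and 2909 in T. Its second compared probe gave 1.38 for LMA minus MMA beside 1.54. Timp4, known from heart and muscle, was detected in T alone at 63.0 units with 1 of its 3 probes. The others were dim in every tissue, with 20.3 and 15.1 units in T.

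Timp1 and Reck were lower in the tongue. Timp1 gave 1266 units in MMA, 2155 in LLS, 2041 in LMA, with 1147 in T, and T lay 2.02-fold below LLS. Reck gave 2506 units in MMA, 2120.4 in LLS and 3194 in LMA, and 1296 in T, and T lay 2.25-fold below MMA and 1.76-fold below LLS. Both were read from their only probe. Each of the 4 inhibitors detected in MMA was detected in every tissue.

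The study's own method, ROKU, has an outlier step that calls a gene specific to a tissue when that tissue's standardised value stands apart from the rest, and a gap of at least 2-fold was also asked for. It called 24 of 57 detected members. Low in MMA alone were 13 members, where 4.19% of all genes were: Mmp11, Mmp14, Mmp16, Adam19, Adam22, Adam23, Adamts2, Adamts7, Adamts8, Adamts15, Adamts17, Adamtsl1 and Timp2. High in T alone were 6, where 8.24% of all genes were: Adam28, Adam33, Adamts5, Adamts14, Adamtsl5 and Timp4. Low in T alone were Adamts19 and Adamtsl3, where 2.52% of all genes were. High in LLS alone was Adam18 (0.331% of all genes), with 1 of its 2 probes, and high in LMA alone was Adamts6 (0.672%). No member was high in MMA alone, where 2.52% of all genes were, or low in LLS alone, where 0.0922% were.

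Genes that work with these proteins were read from lists of 5 related systems. Of the plasminogen and convertase list, which activates pro-MMPs, 11 of 13 genes were compared, with 4 at least 2-fold higher in LLS than in MMA, 5 in LMA and 5 in T, and none lower, where all genes gave 9.74%, 10.6% and 18.3% higher. Urokinase (Plau) gave 516 units in T, 147 in LLS and 85.1 in MMA, and its receptor Plaur gave 344 units in T, 85.2 in LLS and 38.2 in MMA. Plasminogen itself (Plg) was dim in every tissue. Among the astacin proteases and enhancers, 2 of 4 compared genes were higher and 2 lower in T than in MMA. Bmp1, which cuts the other end of procollagens, gave 1522 units in MMA, 4616 in LLS, 6785 in LMA, with 4515 in T. The procollagen enhancer Pcolce2 went the other way from Adamts14, with 49.6 units in T against 153 in LLS and 264 in MMA.

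Substrates differed between stages too. Of 9 compared proteoglycans and microfibril proteins, 5 were at least 2-fold higher in T than in MMA and 0 lower, where 18.3% of all genes were higher and 13.8% lower. Ltbp4, a latent TGF-beta binding protein of elastic fibres, gave 11215 units in T, 1230.0 in LLS and 317 in MMA. Versican (Vcan) peaked in LMA at 4285 units, against 1735 in MMA. Of 16 compared ADAM substrates, 7 were higher in T than in LLS and 0 lower, where 12.9% of all genes were higher and 6.02% lower. Among the 7 were Cd44 with 662 units in T and 51.0 in LLS, and the interleukin-6 receptor gene Il6ra with 678 and 51.7 units. The ADAM partners, rhomboid and tetraspanin genes, showed 1 of 7 higher and 1 lower in that comparison.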

How the data were processed

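Gene expression was measured on 4 Agilent single-colour arrays, 1 pool of embryonic tissue each. The authors deposited scanner output whose intensity values were extracted with Feature Extraction 10.7.1.1 per the file headers; the submitters' processing notes name version 9.5.1.1. The processed signal is background-subtracted and detrended per the file headers. Positions are mm9 per the file headers. The authors' deposited value table holds intensity values for 52145 probes, and its making is not given in the sources used here.

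From these, control spots were left out, repeat spots averaged, and log2(processed signal) minus the 75th percentile of its array was compared. The brightest of a gene's probes was kept, by its mean over the arrays. Current symbols came from RefSeq (GRCm38.p6), and 56601 of 56605 probes were used; 10827 had no gene name. A gene was compared where either tissue of the pair was well above background, and at least 2-fold was counted. Dim values were set to the lowest signal well above background of their array where they lay below it. Counting was tested on simulated data. Alternatives were normexp background correction (limma 3.58.1, R 4.3.3, offset 50), quantile normalization, no filter or floor, the median of all probes, the deposited table and a threshold of 4-fold. Python 3.11.15, numpy 2.4.6 and pandas 2.3.3 were used. With 1 array per tissue no test was run; the number of arrays limits the precision. A planned search for the catalytic motif in proteins was not run, since no protein sequences were used here.

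Any member could be named. Values in every tissue were given for members that passed 2-fold in some comparison, in order of their range, with the 5 highest and 5 lowest of each comparison, and others by counts, ranges or examples. The members and lists were chosen with earlier results of these data known, and the groups by role were drawn up after the values had been seen.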

Additional observations from a re-analysis of the deposited data

Results flagged for a closer look

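A pair of ADAMTS genes went in opposite directions in the E11.5 tissues relative to MMA. For Adamts6 the log2 difference was -0.26 in LLS minus MMA and 1.24 in LMA minus MMA, a difference of -1.50 between the regions. For Adamts18 it was 0.49 in LLS minus MMA and -1.36 in LMA minus MMA, a difference of 1.85. With 1 array per tissue, neither difference was tested.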

How the results depend on the processing

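Of 100 differences of members past 2-fold, all 100 kept their direction under normexp correction, quantile normalization, no filter or floor and the deposited table, and 57, 92, 100 and 92 of them stayed past 2-fold. Under the median of all probes 78 could be recomputed, 75 kept their direction and 60 stayed past 2-fold; Adamts2 in T minus LLS reversed to -0.48. Normexp with its offset shrinks low signals: it left 1 member higher and 0 lower in LLS than in LMA (3 and 5 before), 11 higher in LLS than in MMA (19), 6 higher and 4 lower in T than in LLS (12 and 9), 2 lower in T than in MMA (4), and 14 called specific (24). The median of probes left 11 higher in LLS and 15 higher in T than in MMA, 6 higher and 5 lower in T than in LLS, and 15 called specific. Without filter or floor, 6 were higher and 10 lower in LLS than in LMA, 4 lower in LLS and 5 lower in LMA than in MMA. At 4-fold, 0 were higher and 1 lower in LLS than in LMA, 8 higher in LLS than in MMA, 11 higher and 0 lower in LMA than in MMA, 4 higher and 1 lower in T than in LLS, and 13 higher and 1 lower in T than in MMA. Without filter or floor the median of all genes shifted to -0.17 in LLS and -0.19 in LMA minus MMA, against -0.06 in both before, and that of the members, then taken over all 85, to 0.20 in LLS, 0.18 in LMA and 0.38 in T, against 0.74, 0.93 and 0.73. Of called members with another compared probe, 5 of 9 in LLS minus MMA passed 2-fold with one, 11 of 15 in LMA minus MMA, 11 of 14 in T minus MMA, 7 of 11 in T minus LLS and 3 of 5 in LLS minus LMA. A probe dim in both tissues was not compared, so called members whose other probes were all dim there are missing from these counts. They were Mmp17, Adam22, Adam18 and Adamts16 in LLS minus MMA. In T minus LLS they were Adam28, Adam18, Adamts12, Adamts16, Adamtsl3 and Timp4. No paired analysis was possible because each tissue has 1 array and the groups share fewer than 2 replicate numbers. Stage, region and dissected structure cannot be told apart in the comparisons with MMA and with T.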
